A study of Saccharomyces cerevisiae with 8 samples.

Results

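The Malaysian allele of each gene was followed in a pair of diploid hybrids of Saccharomyces cerevisiae that have 1 parent in common. YHL058 is UWOPS03.461.4 × RM11-1 and YHL063 is UWOPS03.461.4 × BC187, so that both carry a genome copy from the Malaysian isolate UWOPS03.461.4 and their other copy comes from a different wine/European strain. Genes were compared where the normalized read count averaged at least 100 over the 6 allele columns of the hybrids, which held for 5339 of the 5797 genes in the table. In all, 2 of these lay within 1 of that limit, with differences between the hybrids of -0.38 and 0.23 on the log2 scale, and 4 genes just under it had differences of -1.94 to 0. Another hybrid, YHL065 (UWOPS05.217.3 × BC187), and the parents are given where they share an allele with the pair.

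All strains were grown in rich medium (yeast peptone dextrose) at 30° to mid-log phase, and total RNA of 1 culture per strain was sequenced. The strain list of the study gives every hybrid as MATa/α. The RM11-1 genome of YHL058 came from RM11-1b, a MATα haploid with lys2, ura3 and a deletion of HO (hoΔ::kanMX), whereas YHL063 and YHL065 have intact HO. The RM11-1 parental culture was a cross of RM11-1a and RM11-1b and carried a functional LYS2 copy. This parent is listed as ura3 and hoΔ::kanMX, and as heterozygous for lys2 and leu2, while the strain listed as BC187 is MATa/α HO. Each hybrid is 1 strain with 1 library, no spread between replicates can be had, and no test was run. A gene was called when its difference was at least 1 in size on the scale of log2(value + 1), which is 2-fold.

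In a hybrid nucleus, both alleles of a gene are read by the same transcription factors. A difference between alleles within 1 hybrid is therefore attributed to sequence linked to the allele (cis), and a regulator brought by 1 parent can act on both alleles (trans). Allele-specific RNA-seq separates alleles only by reads that cover a sequence difference between the parents. When the wine parent is exchanged, the stretches of a Malaysian allele from which reads are counted are exchanged too, since they are set by where the pair of parents differs. How many such positions each gene had was not measured here.

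The M shift is the log2 value of the Malaysian (M) allele in YHL058 minus that in YHL063, and the wine shift is the same difference between the wine/European alleles, RM11-1 in YHL058 against BC187 in YHL063. M and wine values of a hybrid come from 1 library and are not replicates of each other. Column sums were 19894098 (M) and 20286805 (wine) for YHL058, against 18739636 (M) and 18874974 (wine) for YHL063. Their upper quartile was 2010 in every hybrid column, so the deposited values no longer hold the depth behind them. The read statistics of the study list far fewer uniquely mapping reads for YHL065 than for YHL058 or YHL063, whose totals are close, so the values of YHL065 rest on less data. In each column exactly 10 genes shared the highest value, and such a gene has no value of its own there. Below it the values of YHL058 and YHL063 also came in blocks of 10 genes, with an identical pattern of ties in 37 to 43 successive blocks per column. A value may therefore carry a gene's rank within a set of genes as well as its reads, and the part of this in the shifts was not tested. Over the genes compared, the median M shift was -0.07 and the median wine shift -0.06.

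The marker genes of RM11-1b were examined first. LYS2, which encodes an enzyme of lysine synthesis, had 2383 for the M allele and 1 for the wine allele in YHL058, against 2483 and 1946 in YHL063 (here and below, M first and wine second). In YHL065 it had 2171 and 1876, and in the parents 2465 in RM11-1 and 7796 in BC187. The RM11-1 copy of YHL058 was thus the low one, as the lys2 genotype of RM11-1b has it, while the Malaysian copies of both hybrids differed by only -0.06. URA3, an enzyme of uracil synthesis, was low everywhere, with 53 and 7 in YHL058, against 73 and 14 in YHL063. It was not among the genes compared. HO, the endonuclease of mating-type switching, had 4 and 5 in YHL058 against 4 and 1 in YHL063. The levels in the hybrids are too low to tell the URA3 and HO genotypes apart. In the parents HO had 0 in RM11-1 and 114 in BC187, and URA3 had 101 in RM11-1 and 32 in BC187. The RM11-1 parent, listed as ura3, thus had the highest URA3 value of the parents, so URA3 was not low where the listing has ura3. LEU2, an enzyme of leucine synthesis, had 848 and 574 in YHL058 against 1102 and 748 in YHL063.

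The mating-type gene a1 gave a second check. It is annotated at HMRA1, the silent copy on chromosome III, because the S288C reference carries α genes at the MAT locus. HMRA1 had 392 for the M allele and 8 for the wine allele in YHL058, against 12 for the M allele and 513 for the wine allele in YHL063. In YHL065 it had 651 and 8. Its reads therefore came from the Malaysian side in YHL058 and from the wine side in YHL063. This was the single gene whose M and wine shifts both passed 2-fold in opposite directions (4.92 and -5.84), and it was chosen after its values were seen. Of 20 genes that mark haploid cells, 9 were under 100 and 3 under 10 in all 4 columns of the pair. The 20 summed to 5505 and 5464 in YHL058, against 4996 and 6721 in YHL063.

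The same Malaysian allele differed between the hybrids by 2-fold or more at 236 genes (4.42%), of which 122 (2.29%) were higher and 114 (2.14%) lower in YHL058. Most genes differed little, since 83.0% lay within 0.5 and the quartiles were -0.25 and 0.14. The wine alleles, which are different sequences, differed past 2-fold at 298 genes (5.58%), 175 (3.28%) higher and 123 (2.30%) lower in YHL058, and 80.4% lay within 0.5. For scale, the BC187 allele differed past 2-fold between YHL065 and YHL063 at 134 genes (2.51%), and the RM11-1 parent differed from the BC187 parent at 251 genes (4.70%).

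At most of the genes where the Malaysian allele differed, the wine allele differed in the same way. Of the 236 genes, 162 (68.6%) had M and wine shifts past 2-fold in the same direction (called alike here), which is 3.03% of the genes compared. Both alleles were higher in YHL058 at 97 of these (1.82%) and lower at 65 (1.22%). In a further 51 the wine shift was 0.5 to 1 in the same direction, and in 23 it was under 0.5 in that direction. The wine shift had to pass a fixed limit, which by itself favors large M shifts where both alleles move together. Larger M shifts were more often alike. This held for 65 of the 70 genes with an M shift of at least 4-fold (92.9%) and for 22 of the 24 genes past 16-fold (91.7%), against 97 of the 166 genes between 2-fold and 4-fold (58.4%). In 132 of the 162 alike genes (81.5%) the M and wine shifts lay within 0.5 of each other, beside 92.6% of all genes compared.

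**Figure D1:**
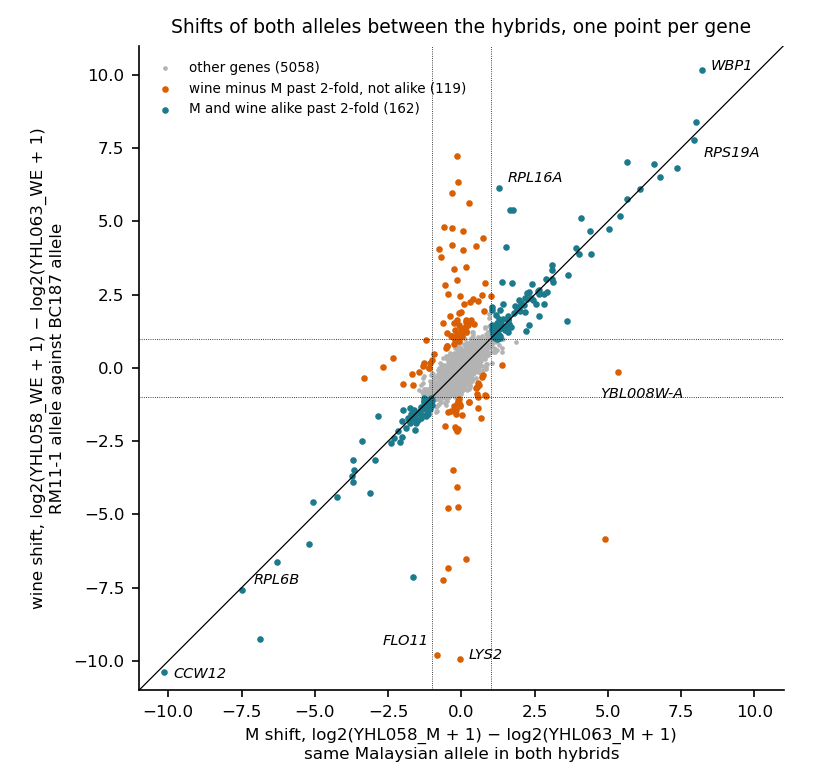
M shift (x axis) against wine shift (y axis) of the 5339 genes, each YHL058 minus YHL063 in log2(value + 1), with dotted lines at 2-fold and the line of equal shifts. Most of the 162 alike genes lie near the diagonal from CCW12 to WBP1, with some far off it, such as YGR201C and RPL16A. The other genes whose wine shift minus M shift passed 2-fold lie mostly in a vertical band near an M shift of 0.

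Both alleles stood far higher in YHL058 at genes of several kinds. RPS19A, a protein of the small ribosomal subunit, had 17359 (M) and 16146 (wine) in YHL058, against 69 and 72 in YHL063, an M shift of 7.95 and a wine shift of 7.79. YHL065, which shares BC187 with YHL063 but has another Malaysian parent, had 74 and 69. The parents had 27210 in RM11-1 and 30803 in BC187, so that neither wine strain was low. GIM4, a subunit of the prefoldin chaperone, showed the same picture, with 6027 and 4894 in YHL058, against 36 and 42 in YHL063. RPO26, a subunit that the nuclear RNA polymerases share, had 6568 and 6468 in YHL058, against 152 and 177 in YHL063. In each of these genes the lower YHL058 value exceeded the highest value of YHL063 and YHL065 more than 16-fold.

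Single histone, ribosomal and metabolic genes were also higher in YHL058. HHF2, 1 of the genes for histone H4, had 13223 and 11495 in YHL058, against 400 and 426 in YHL063, and its M shift was 5.04. HHF1, which encodes the same histone, had 8250 and 7519 in YHL058 against 7321 and 5868 in YHL063, an M shift of 0.17. Only 1 of the H4 genes was therefore past 2-fold. SAM2, a synthetase of S-adenosylmethionine, had 2509 and 2890 in YHL058, against 146 and 82 in YHL063, and its partner SAM1 had an M shift of -0.63. MIX17, a protein of the mitochondrial intermembrane space, had 4070 and 3425 in YHL058, against 192 and 132 in YHL063. The ribosomal protein genes RPS9A and RPL31B had M shifts of 6.58 and 4.44, and RPL15A 6.78. RPL15A stood at the shared highest value of the wine column of YHL058, and its wine shift of 6.51 is not a value of its own.

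The largest differences in the other direction were of the same size. CCW12, an abundant mannoprotein of the cell wall, had 243 for the M allele in YHL058, against 275455 in YHL063, and its wine shift was -10.39. In YHL063 it had the highest value of both columns. It was also at the highest value in both columns of YHL065 and in the UWOPS03.461.4, RM11-1 and BC187 parents, which leaves YHL058 as the low hybrid. RPL6B, a protein of the large ribosomal subunit, had 77 and 63 in YHL058, against 13927 and 12224 in YHL063, an M shift of -7.48. Its copy RPL6A had an M shift of -0.51. MBF1, a coactivator of Gcn4, had 177 and 195 in YHL058, against 5911 and 4692 in YHL063. RPL36B and RPL19A had M shifts of -6.31 and -5.21, and RPL12A and RPL41B -4.26 and -3.71.

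Genes outside the ribosome were lower in YHL058 as well. VMA22, an assembly factor of the vacuolar ATPase, had 62 and 58 in YHL058, against 826 and 751 in YHL063. MEF1, the elongation factor of mitochondrial translation, had 161 and 148 in YHL058, against 2092 and 2221 in YHL063. PAA1, a polyamine acetyltransferase, had 267 and 311 in YHL058, against 3363 and 3475 in YHL063. In these 3 genes the alleles of a hybrid lay close together, and YHL058 was low in both.

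Alike genes with a column under 10 stand apart from those above and are named after their values were seen. WBP1, a subunit of the oligosaccharyltransferase, had 2076 and 2278 in YHL058, against 6 and 1 in YHL063. RER1, which retrieves membrane proteins to the endoplasmic reticulum, had 1531 and 1679 in YHL058, against 5 and 4 in YHL063. PSF1, a subunit of the GINS complex of DNA replication, and PPH3, a catalytic subunit of protein phosphatase 4, were likewise higher in YHL058, with M shifts of 6.08 and 5.65. RPL32 had 23 and 0 in YHL058, against 2805 and 614 in YHL063. In YHL065 RPL32 had 25 and 24, so that here YHL063 was the hybrid that stood apart. At such values the shift depends on the pseudocount, and with a pseudocount of 10 the M shift of WBP1 was 7.03 in place of 8.21.

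**Figure D2:**
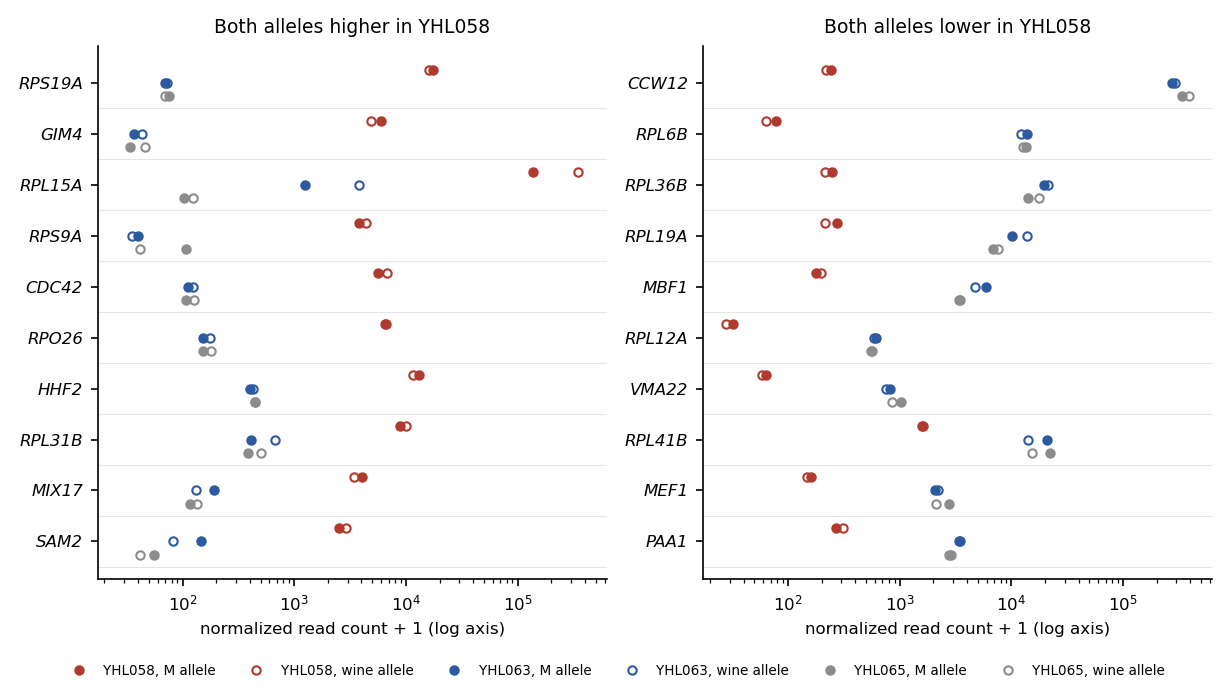
Normalized read count + 1 (log axis) of the 10 genes with the largest M shift in each direction among alike genes with at least 10 in all 4 columns, with M alleles as filled and wine alleles as open circles of YHL058, YHL063 and YHL065. YHL058 stands apart from YHL063 at each gene, and M and wine mostly lie close together within a hybrid, less so at RPL15A. YHL065, whose M allele comes from another Malaysian strain, is nearer to YHL063 than to YHL058 at each gene. Even so, RPL15A, RPS9A and SAM2 differ past 2-fold between YHL065 and YHL063 in at least 1 allele.

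The level of each allele in the other libraries was compared next. The YHL058 and YHL063 values chose these genes and are given as a description. For the 97 genes that were higher in YHL058, the median log2 value was 10.78 (M) and 10.91 (wine) in YHL058, 8.40 and 8.37 in YHL063, and, for YHL065, 8.37 and 8.38. For the 65 genes that were lower in YHL058, the medians were 8.06 (M) and 7.89 (wine) in YHL058, 9.96 and 9.83 in YHL063, and, for YHL065, 9.93 and 9.83. Over all genes compared, the median was 9.78 to 9.84 in every hybrid column. YHL063 and YHL065 share the BC187 genome, and each comparison with YHL063 uses the same YHL063 library.

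Between the wine parents the alike genes differed about as often as other genes. RM11-1 and BC187 differed past 2-fold at 10 of the 162 (6.17%, beside 4.70% of all genes), in the direction of the hybrids at 7 and in the other direction at 3. They differed by less than 0.5 at 122. The median parental difference, RM11-1 minus BC187, was 0.08 at the genes higher in YHL058 and -0.01 at those lower in YHL058, whereas the median M shifts were 1.79 and -1.60 and the median wine shifts 2.06 and -1.63.

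Set against the UWOPS03.461.4 parent, the hybrid with the lower value was, by median, the one that departed. The alike genes were again chosen by the YHL058 and YHL063 values. The tables of the parents and of the hybrids were normalized separately, so only differences from the median of all genes can be read. The median log2 ratio of the M allele to that parent was -1.64 in YHL058 and -1.58 in YHL063 over all genes. At the genes higher in YHL058 it was -1.29 in YHL058 and -3.42 in YHL063. At the genes lower in YHL058 it was -3.63 in YHL058 and -1.91 in YHL063. In both sets the median of the lower hybrid lay well under its median of all genes, and that of the higher hybrid lay close to it. Single genes need not follow these medians. At RPL12A and HXT4 the ratio was far under the median of all genes in both hybrids.

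Alike genes were shorter than the rest. Their median length was 902.5 bases, against 1215 for all genes compared. Of genes of 51 to 735 bases, 69 of 1340 (5.15%) were alike, against 2.62% of those of 738 to 1215 bases, 1.96% of those of 1218 to 1893 bases and 2.40% of longer ones. Median GC content was 39.7% in alike genes and 39.6% overall. The median value in the UWOPS03.461.4 parent was 4109, against 2972 overall. Genes with a 100-base window that occurs more than once in the S288C reference made up 4.32% of alike genes and 4.03% of all, and genes within 30 kb of a chromosome end 2.47% and 4.79%. The part of gene length in the shifts was not tested.

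Alike genes often lay near each other, in either direction. Of the 324 places next to an alike gene, 36 (11.1%) held another alike gene, beside 3.03% of all genes. In 24 of these the neighbours shifted in the same direction and in 12 in opposite directions. In all, 80 of the 162 genes had another within 5 places, and 11 groups of at least 3 held 52 genes. The share of all compared genes with an alike gene that near was not counted, so these numbers have no background beside them. Chromosome IV had 38 alike genes of 684 (5.56%) and chromosome I had 0 of 74.

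The largest group spanned 40 compared genes of chromosome IV, of which 15 were alike, 10 higher and 5 lower in YHL058. It was picked after its values were seen, as were the genes named here. DBF4, the regulatory subunit of the Cdc7 kinase that fires replication origins, had 1202 and 1492 in YHL058, against 160 and 180 in YHL063. CDC34, a ubiquitin-conjugating enzyme of the cell cycle and its close neighbour, went the other way, with 252 and 237 in YHL058, against 856 and 865 in YHL063. EMC10, a subunit of a membrane protein insertase of the endoplasmic reticulum, had an M shift of 2.64, and PAA1 -3.65. PDC2, an activator of pyruvate decarboxylase genes, had an M shift of -1.71, and SED1, a cell wall protein, 1.04. RLI1, a protein of ribosome recycling, had 4745 and 5548 in YHL058, against 2316 and 2225 in YHL063. The 25 other genes in between had a median M shift of 0.01, and 4 of them passed 2-fold in 1 of the columns.

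**Figure D3:**
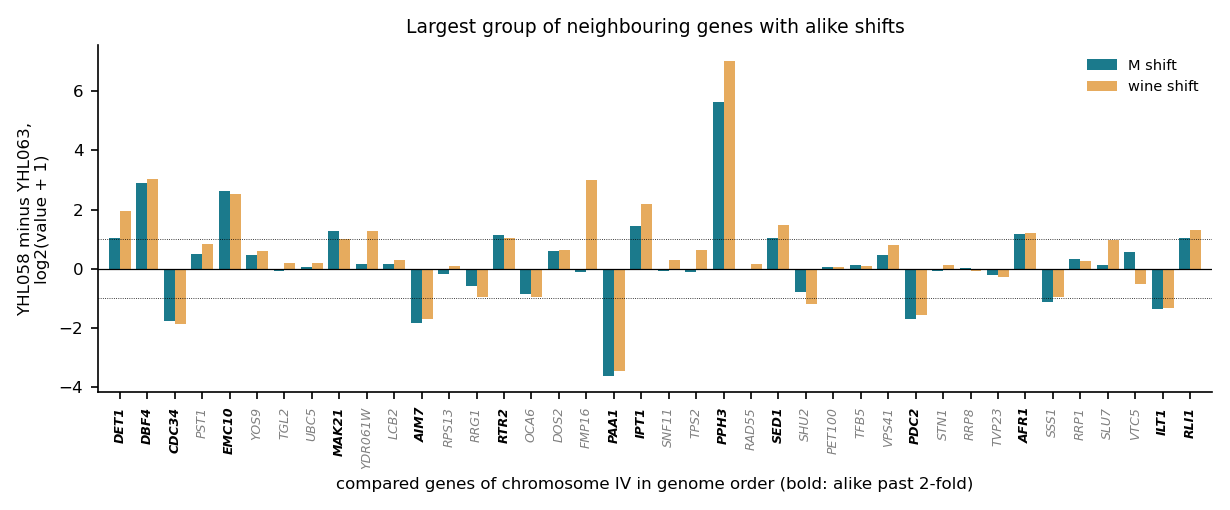
M shift and wine shift, YHL058 minus YHL063 in log2(value + 1), of 40 consecutive compared genes of chromosome IV in genome order, with the 15 alike genes in bold. Bars of both colors point the same way at the alike genes, genes higher and lower in YHL058 are interspersed, and most genes between them are near 0.

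No whole chromosome moved. The median M shift per chromosome ran between -0.11 (chromosome V) and -0.03 (chromosome II), and the median wine shift between -0.12 (chromosome IX) and -0.02 (chromosome I). In sliding windows of 21 genes the median stayed between -0.40 and 0.44 for the M shift and between -0.42 and 0.77 for the wine shift, all short of 2-fold.

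A few genes differed in the Malaysian allele alone. NOP58, a core protein of the box C/D ribonucleoproteins that modify ribosomal RNA, had 1029 (M) in YHL058, against 5152 in YHL063, whereas its wine allele had 6617 in YHL058 and 5218 in YHL063. In YHL065, the M allele had 6248. YBL008W-A, a short open reading frame, had 604 (M) in YHL058, against 14 in YHL063, while its wine allele had 19 in YHL058 and 21 in YHL063. YLR415C had 708 in YHL058 against 340 in YHL063 for the M allele, and YNR066C had 60 in YHL058 against 193 in YHL063. YIL134C-A had 212 in YHL058 against 575 in YHL063. TMA19 had 292159 in YHL058 against 110605 in YHL063, but its YHL058 value was the shared highest of the column. ENA5 (a sodium pump) and HXT7 (a hexose transporter) also met the rule, but 87.8% and 94.9% of their 100-base windows are repeated in the reference, and their reads may be divided with close copies.

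The wine shift minus the M shift sets the RM11-1 allele against the BC187 allele, each relative to the Malaysian allele of its own hybrid. This removes what both alleles of a hybrid share. It narrowed the spread, since 92.6% of genes lay within 0.5, with quartiles of -0.13 and 0.13. The difference passed 2-fold at 134 genes (2.51%), with the RM11-1 allele higher at 87 (1.63%) and lower at 47 (0.880%). Where all 4 columns were required to be at least 100, a rule added after seeing the data, the counts were 53 and 30. Of the 134 genes, 23.9% had a repeated window (4.03% of all genes) and 20.1% lay within 30 kb of a chromosome end (4.79% of all).

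At many of these genes the wine parents differed in the same direction. RM11-1 was higher than BC187 past 2-fold at 39 of the 87 genes with a higher RM11-1 allele (3.33% of all genes) and lower at 0, and above BC187 by any amount at 74. It was lower past 2-fold at 14 of the 47 genes with a lower RM11-1 allele (1.37% of all genes) and higher at 0, and below BC187 at 41. The median parental difference was 0.87 at the genes with a higher RM11-1 allele and -0.61 at those with a lower one. Without genes that hold a repeated window, the parents differed past 2-fold in the same direction at 30 of 64 and at 10 of 38, and in the opposite direction at 0. Parents and hybrids are separate libraries. Across the 5339 genes, which are not independent, Pearson's r with the parental difference was 0.40 for the wine shift minus the M shift (Spearman's coefficient 0.18), 0.27 for the wine shift (Spearman's 0.07) and -0.01 for the M shift (Spearman's -0.06).

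Seen from the parents, most of the differences between RM11-1 and BC187 were under 2-fold between the alleles. The genes are chosen here by the parental values, and the hybrid values are a description. Of the 251 genes past 2-fold between the parents, 198 (78.9%) had a difference between alleles under 2-fold, and 53 (21.1%) had one past 2-fold in the same direction, beside 2.51% of all genes past 2-fold in either direction. An M shift past 2-fold in the parental direction was found at 8 (3.19%), beside 2.29% of all genes higher and 2.14% lower in YHL058. The median size of the parental difference was 1.39, while the median in that direction was 0.14 for the wine shift minus the M shift and -0.01 for the M shift.

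**Figure D4:**
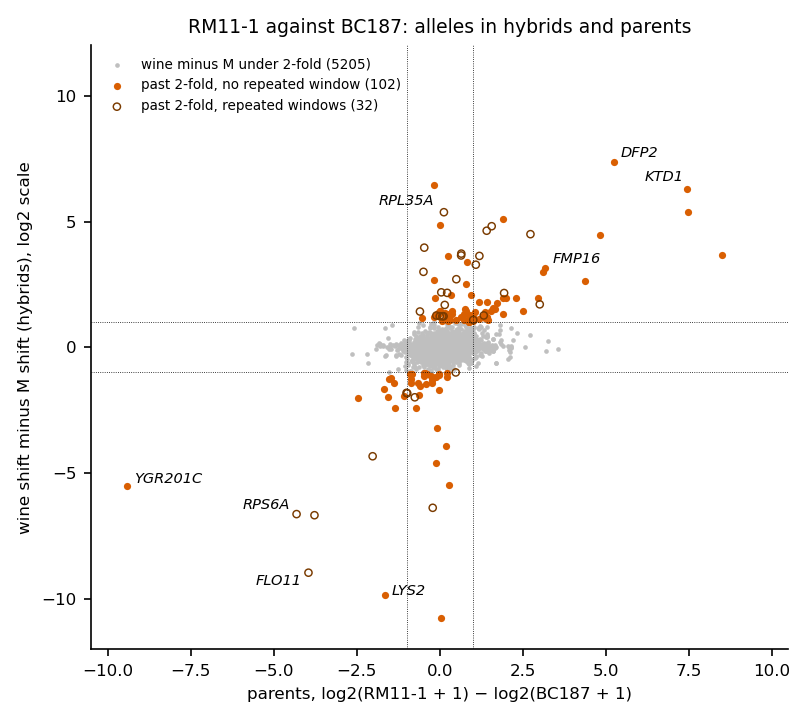
Wine shift minus M shift in the hybrids (y axis) against RM11-1 minus BC187 in the parents (x axis), both on the log2 scale, for 5339 genes, with dotted lines at 2-fold and genes with repeated 100-base windows as open circles. No called gene lies past 2-fold in opposite directions, and the cloud of 5205 genes under 2-fold in the hybrids is wider along the parental axis.

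Some genes without repeated windows had alleles and parents past 2-fold in the same direction and an M shift under 0.5, 19 of them with a higher and 7 with a lower RM11-1 allele. They are named after their values were seen. FMP16, a mitochondrial protein, had wine-allele values of 653 (RM11-1) in YHL058 and 80 (BC187) in YHL063, while the M allele had 652 in YHL058 and 714 in YHL063. The parents had 1964 in RM11-1 and 215 in BC187. In YHL065 both alleles were low, with 91 (M) and 77 (BC187), although its Malaysian parent UWOPS05.217.3 had 1566. ENB1, the transporter of the iron chelate enterobactin, had wine-allele values of 3514 in YHL058 and 694 in YHL063, with parents at 12357 in RM11-1 and 2536 in BC187. KTR4, a mannosyltransferase, had wine-allele values of 4177 in YHL058 and 1456 in YHL063, with parents at 10520 in RM11-1 and 3181 in BC187. RAD26, a factor of transcription-coupled repair, and KIN1, a protein kinase of exocytosis, had differences between alleles of 1.78 and 1.44. KTD1 was listed at 0 for BC187 in YHL063, in YHL065 and in the BC187 parent, whereas the RM11-1 allele had 62 in YHL058 and the RM11-1 parent 173. DFP2 had 1055 (RM11-1) in YHL058 and 6 (BC187) in YHL063, with parents at 1937 in RM11-1 and 50 in BC187.

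At other genes of this kind the BC187 allele was the higher one. MRH1, a membrane protein, had wine-allele values of 1406 in YHL058 and 5963 in YHL063, with M values of 5885 in YHL058 and 6348 in YHL063, and its parents had 3782 in RM11-1 and 11241 in BC187. YAT1, a carnitine acetyltransferase, had wine-allele values of 169 in YHL058 and 748 in YHL063, with parents at 536 in RM11-1 and 2963 in BC187. RFX1, a repressor of DNA damage genes, had wine-allele values of 107 in YHL058 and 242 in YHL063.

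Among genes with at least 10 in all 4 columns, the largest differences between the wine alleles were mostly at genes with repeated windows or with parents of similar level. LYS2, KTD1 and DFP2, described above, fall outside that limit and have neither. FLO11, the flocculin of surface adhesion and invasive growth, had wine-allele values of 20 in YHL058 and 18604 in YHL063. The wine parents had 59 in RM11-1 and 929 in BC187, and 15.4% of its windows are repeated. The M allele of FLO11 had only 93 in YHL058 and 166 in YHL063, although the UWOPS03.461.4 parent had 261985. Whether FLO11 reads were assigned to the right allele was not tested. RPL16A had wine-allele values of 18562 in YHL058 and 264 in YHL063, but its parents had 35424 in RM11-1 and 35340 in BC187. RPL35A had wine-allele values of 21835 in YHL058 and 442 in YHL063, again with similar parents at 23556 in RM11-1 and 21591 in BC187. YCR099C had wine-allele values of 326 in YHL058 and 11 in YHL063, with parents at 977 in RM11-1 and 259 in BC187. CSS1 had wine-allele values of 147 in YHL058 and 16804 in YHL063, with parents at 42624 in RM11-1 and 49337 in BC187. YGR201C had 2057 in YHL058 and the shared highest value of 292197 in YHL063, and was at the highest value in BC187 too. RPL4B and TIF2 have over 50% repeated windows and are uncertain.

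The copies of ribosomal protein S6 and of initiation factor eIF4A, an RNA helicase, show how little separates such genes. The last 90 coding bases of each, up to the stop codon, are printed from the S288C reference (RefSeq, R64), with capitals where the copies of a pair differ. RPS6A lies at chrXVI:377291-377380 and RPS6B at chrII:591712-591801, both on the minus strand. TIF1 lies at chrXI:556085-556174 on the plus strand and TIF2 at chrX:153504-153593 on the minus strand. All 4 stretches are coding exon.
RPS6A: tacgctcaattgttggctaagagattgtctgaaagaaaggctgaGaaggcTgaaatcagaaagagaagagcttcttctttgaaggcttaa
RPS6B: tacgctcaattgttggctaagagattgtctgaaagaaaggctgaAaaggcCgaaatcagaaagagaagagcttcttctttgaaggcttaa
TIF1: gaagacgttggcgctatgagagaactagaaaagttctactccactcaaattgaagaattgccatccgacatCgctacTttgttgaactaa
TIF2: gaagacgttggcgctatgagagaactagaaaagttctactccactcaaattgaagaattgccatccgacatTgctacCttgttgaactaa
Over their whole coding length, 711 bases for the RPS6 genes and 1188 for the TIF genes, the copies differ at 6 positions in each pair (99.2% and 99.5% identity), and share runs of up to 311 and 644 identical bases. Reads from such runs cannot be placed uniquely in this reference.

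Both copies of each pair moved together in the wine alleles. RPS6A had wine-allele values of 132 in YHL058 and 20144 in YHL063, and RPS6B had 297 in YHL058 and 27480 in YHL063. The parents differed likewise, with 841 (RPS6A) and 988 (RPS6B) in RM11-1, against 16731 and 13522 in BC187. The Malaysian allele of RPS6A had 772 in YHL058 and 1179 in YHL063, and that of RPS6B 292 in YHL058 and 263 in YHL063. TIF1 had wine-allele values of 14931 in YHL058 and 354 in YHL063, and TIF2 had 12668 in YHL058 and 492 in YHL063. Their Malaysian alleles did not move together, since TIF1 had 5002 in YHL058 and 1475 in YHL063, an M shift of 1.76, and TIF2 had 1099 in YHL058 and 1063 in YHL063. The parents had 12554 (TIF1) and 14378 (TIF2) in RM11-1, against 5484 and 5394 in BC187. The part of repeated sequence in these values was not tested.

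Gene lists were then described by their counts and medians, for 24 pathways and complexes with 657 genes compared. Together they held 19 genes with a higher and 18 with a lower M shift, and 27 alike genes (4.11%, beside 3.03% of all genes). The cytoplasmic ribosomal proteins had the most calls, with 7 higher and 8 lower of 135, or 11.1% beside 4.42% of all genes. The calls ran in both directions, with RPS19A and RPL6B at opposite ends, whereas the list as a whole lay slightly higher in YHL058. Its median was 0.12 for both the M shift and the wine shift, against -0.07 and -0.06 over all genes. Among these 135, 7 were alike and higher in YHL058 (1.82% of all genes), such as RPL40A, a fusion of ubiquitin and a ribosomal protein. Another 7 were alike and lower (1.22% of all genes). Of the 135, 12 had a higher and 5 a lower RM11-1 allele in the wine shift minus the M shift. Over all genes these shares were 1.63% and 0.880%. Repeated windows are held by 10 of these 17 ribosomal protein genes.

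Genes of ribosome assembly and histones held calls as well. Ribosome biogenesis had 3 higher and 3 lower of 76 (7.89%, beside 4.42% of all genes), with a median M shift of 0.06. Besides NOP58, these included NOG1, a GTPase of 60S subunit assembly, with 1448 and 1360 in YHL058, against 6409 and 6056 in YHL063. NOP8, another 60S factor, had 2014 and 1962 in YHL058, against 405 and 714 in YHL063. NOP12 had an M shift of 1.87. Of 11 histone genes, HHF2 and HHT2 were past 2-fold (18.2%), and HHT2, which encodes histone H3 next to HHF2, had 17562 and 15680 in YHL058, against 8359 and 8784 in YHL063. The median M shift of the histones was 0.20.

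In carbon metabolism the calls were at single genes, in both directions. Glycolysis and fermentation had 1 higher and 3 lower of 23 (17.4%, beside 4.42% of all genes), with a median M shift of 0.08. GPM1, phosphoglycerate mutase, had 27068 and 25791 in YHL058, against 109805 and 89920 in YHL063. TPI1, triosephosphate isomerase, had an M shift of 1.40 with a wine shift of 0.54. TDH2 and ENO2 were lower in the M allele (-1.06 and -1.01) but not in the wine allele (0.18 and 0.25), and ENO2 was at the highest value of 3 of the 4 columns. CYC7, the cytochrome c isoform of low oxygen, was the single call among 50 genes of the TCA cycle and respiration, with 727 and 569 in YHL058, against 124 and 124 in YHL063. Of 13 hexose transporter genes, HXT4 had 194 and 743 in YHL058, against 73 and 96 in YHL063, and HXT7, the other call (together 15.4%), was uncertain.

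Other lists held 1 to 3 calls each. PHM6, of the phosphate regulon, had 943 and 788 in YHL058, against 106 and 103 in YHL063, an M shift of 3.14. In YHL065, which shares BC187 with YHL063, PHM6 had 630 and 681, nearer to YHL058. PHO12, an acid phosphatase with a close copy, had an M shift of -1.22, with 75.2% repeated windows. LYS20, a homocitrate synthase of lysine synthesis, had 1421 and 3063 in YHL058, against 117 and 1008 in YHL063. In YHL065 LYS20 had 12 and 2026, and 24.4% of its windows are repeated. SAM2 was the single call among 27 sulfur and methionine genes (3.70%, beside 4.42% of all genes). In the flocculins and cell surface list, CIS3, a cell wall protein, had 4433 and 2362 in YHL058, against 10323 and 5050 in YHL063, and CCW12 and SED1 were the other calls (3 of 15, a share above the 4.42% of all genes). None of the 33 compared genes of iron uptake and Aft1 targets had an M shift past 2-fold, beside 4.42% of all genes. FTR1, the high-affinity iron permease, had the largest, 0.93, with 17505 and 11477 in YHL058, against 9160 and 6578 in YHL063. In this list ENB1 and FRE2, a ferric reductase, had an RM11-1 allele over 2-fold higher than the BC187 allele, each relative to the Malaysian allele of its hybrid. This held for 1.63% of all genes. For FRE2, whose wine alleles had 194 in YHL058 and 81 in YHL063, the parents went the other way. They had 784 in RM11-1 and 1135 in BC187.

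Where the wine parents differed across a list, the hybrid medians were near 0. Trehalose and glycogen genes had a median difference of 0.96 between RM11-1 and BC187, with 5 of 14 past 2-fold. In the hybrids their median M shift was -0.05 and their median wine shift 0.03. None of the 14 had an M shift past 2-fold, beside 4.42% of all genes. In the TCA cycle and respiration list the parental median was 0.62 with 14 of 50 genes past 2-fold, and the M shift median 0.06. General stress genes had a parental median of 0.46, with 10 of 32 past 2-fold, and an M shift median of -0.12. Ribosome biogenesis was at -0.38 in the parents and 0.06 in the M shift, and lysine synthesis at -0.75 and -0.02. Over all genes the parental median was 0.07 and the M shift median -0.07.

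**Figure D5:**
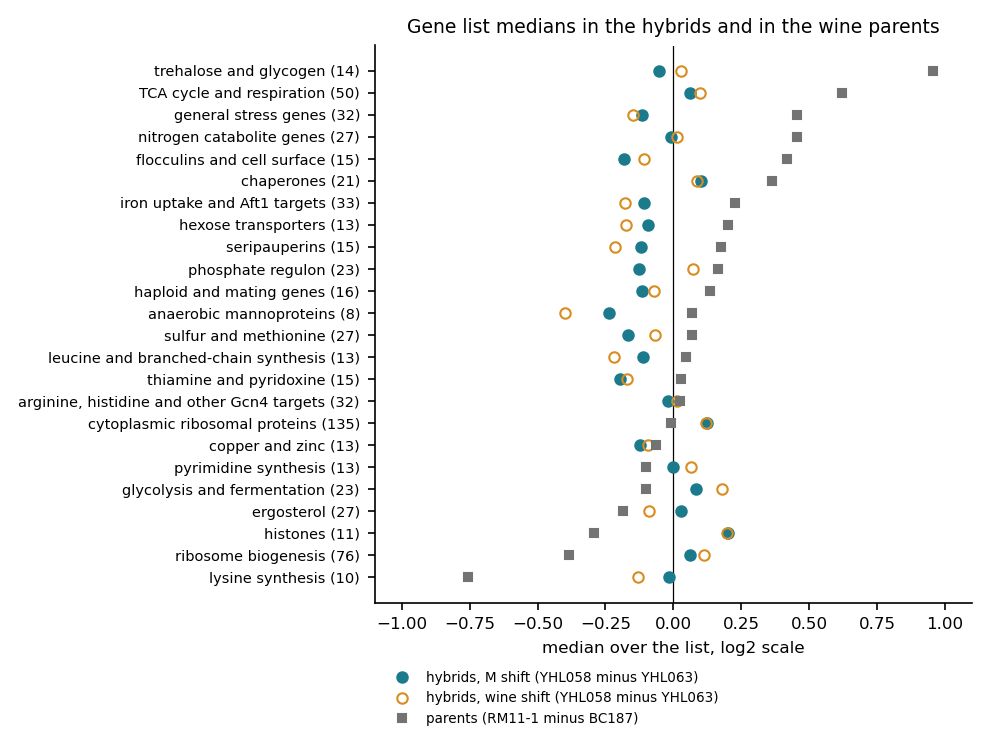
Median over each of 24 gene lists (number of genes compared in parentheses) of the M shift and wine shift between YHL058 and YHL063, and of RM11-1 minus BC187 in the parents, on the log2 scale. Hybrid medians lie between -0.40 and 0.20 while parental medians spread between -0.75 and 0.96.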

How the data were processed

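RNA-seq of 8 strains (5 parents, 3 hybrids) was used, with 1 library each. According to the Methods of the study, reads were mapped with Bowtie to parental genomes amended with SNPs (concatenated for hybrids), and reads were used only if they had a single placement and no mismatch, then summed per gene. The deposited values are a score: read counts that the authors normalized with EDASeq (upper quartile between lanes, loess for GC content) and rounded to whole numbers. The blocks of tied values in the hybrid columns look like ranks within strata of genes and are not described in the stated steps. They did not follow GC deciles of the reference genes, since 5.88 to 6.19 of the 10 deciles occurred per block on average. The submitters' processing notes name Bowtie 0.12.7 and DESeq. The genome build of the mapping is not given in the sources used here. Columns with the authors' own fold changes and p-values were not used. The deposited scores do not hold the depth of a library, so no counting interval is given.

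Values were compared as log2(value + 1) where the mean of the 6 hybrid columns reached 100, with Python 3.11.15, numpy 2.4.6, pandas 2.3.3 and matplotlib 3.10.9. This scale understates differences of low values. With 1 culture per hybrid, no test was run, and a difference of at least 1 was called. The counting was tested on simulated data with known shifts. Names, lengths and 100-base windows came from the S288C assembly R64, in which 5792 of 5797 gene identifiers were found. Genes named are the markers, the 10 with the largest M shift in each direction among alike genes, the 5 in each direction for the M allele alone and for the wine shift minus the M shift (all with at least 10 in all 4 columns), and up to 4 members of a list. Other genes were named after their values were seen. Members and gene lists were chosen with earlier results of these data known. Alternatives were a pseudocount of 10 or 0.5, other limits on low values, median-ratio rescaling, quantile normalization, and leaving out repeated genes or those near chromosome ends.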

Additional observations from a re-analysis of the deposited data

How the results depend on the processing

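With no replicates, stability under other processing is all that can be examined, and each setting was applied to the counts past 2-fold. Without the filter on low values, the wine shift minus the M shift passed 2-fold upward at 146 and downward at 75 genes. With a mean of at least 1000, which left 2531 genes, the counts higher and lower in YHL058 were 55 and 42 for the M shift, 73 and 53 for the wine shift, 43 and 27 for alike genes, and 29 and 21 for the wine shift minus the M shift. With at least 100 in all 4 columns, added after seeing the data, the last pair was 53 and 30. Under the other settings every count stayed within 1.5 times its value. Of 102 single genes followed, the 58 with an M shift past 2-fold kept their sign under each rescaling and pseudocount. Under a rescaling 6 others changed sign, all with an M shift of at most 0.15 in size, and 6 of the 102 moved in size with a pseudocount of 10. Read in the wine allele in place of the Malaysian one, YBL008W-A (-0.14), HMRA1 (-5.84), HXT7 (0.03), ENO2 (0.25), PHO12 (0.97), TDH2 (0.18) and NOP58 (0.34) took the other sign, and with both alleles summed HMRA1 did (-0.39). Another 58 in the wine allele and 49 in the sum moved in size. Of the list medians, 4 moved under quantile normalization and 2 with the alleles summed, none by 2-fold. No paired analysis was possible because each hybrid is 1 culture, and for the same reason no replicate could be left out.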

Other observations

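Of the 24 gene lists, 14 had no gene with an M shift past 2-fold, beside 4.42% of all genes. These lists were small, with 8 to 33 genes compared. They were the anaerobic, Gcn4 targets, chaperones, copper and zinc, ergosterol, general stress, haploid and mating, iron uptake, leucine, nitrogen catabolite, pyrimidine, seripauperin, thiamine, and trehalose and glycogen lists. The lowest median M shift among all lists was -0.24, in the list of 8 anaerobic genes, and the median of 15 thiamine and pyridoxine genes was -0.20. TIR1, a mannoprotein of the cell wall made at low oxygen and cold, had wine-allele values of 8 in YHL058 and 248 in YHL063, with M values of 109 in YHL058 and 150 in YHL063, and parents at 1403 in RM11-1 and 5698 in BC187. UPC2, an activator of sterol genes, had 70 and 75 in YHL058, against 139 and 118 in YHL063, just short of 2-fold. ARO4, of aromatic amino acid synthesis, had 5559 and 5297 in YHL058, against 11022 and 9203 in YHL063, also just short of it. An M shift above the median of all genes was found at 10 of 11 histone, 95 of 135 ribosomal protein and 36 of 50 respiration genes, and at 2 of 15 thiamine and 2 of 15 seripauperin genes.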
